A study of Mus musculus with 8 samples.

Results

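Cited1, Corin, Tgfbi, Fam159b and Asb4 are 5 genes with few reports in AgRP neurons, taken out of the 45706 genes of the count table by their symbols. They were selected on the values of the libraries described here, chosen by a far higher level in ribosome-bound RNA of AgRP neurons than in RNA of the surrounding tissue. Their difference between those fractions is therefore described here without a test, and their relatives, partners and chromosomal neighbours, which were listed with earlier results of these data known, are tested. AgRP neurons lie in the arcuate nucleus of the hypothalamus, drive feeding, and release agouti-related peptide, neuropeptide Y and GABA.

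Ribosomes were pulled down with antibodies against GFP (translating ribosome affinity purification). The RNA bound to them forms the immunoprecipitate (IP), and the tissue homogenate before the pull-down gave the input. All 8 libraries, 4 IP and 4 input, came from 1 genotype, Mfffl/fl with AgRP-IRES-Cretg/wt and a further allele, RpL10a-GFPfl/wt. In these mice Cre made from the Agrp locus deletes Mff, which encodes a factor of mitochondrial fission, and switches on 1 copy of GFP-tagged RpL10a. Mice were 11 to 12 weeks old and fed at random, and each library pooled the dissected arcuate region of 3 mice of mixed sexes. All mice carry the Mff deletion in AgRP neurons, so no value below measures its effect.

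The proteins of the 5 genes do different things. CITED1 binds no DNA itself and works as a transcriptional coactivator that joins CBP and p300 to factors such as SMAD4, AP-2 and the oestrogen receptor. CORIN is a serine protease anchored in the cell membrane that cuts the precursor of atrial natriuretic peptide in the heart, and in skin it modifies coat colour downstream of agouti, the relative of AgRP. TGFBI is a secreted matrix protein, induced by TGF-beta, whose fasciclin domains bind integrins and collagens. Fam159b, which RefSeq names Shisal2b, encodes a small predicted membrane protein of the shisa group with little known function. ASB4 is an ankyrin repeat and SOCS box protein, the part of a cullin ubiquitin ligase that picks the substrate, and IRS4 is among its known targets.

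The bases just upstream of the start site of each gene are printed so that the 5 starting points can be compared directly. They come from RefSeq (GRCm38.p6), run 5′ to 3′ on the gene's strand and stop before the annotated transcript. Capitals mark every match to any of 10 motifs searched on both strands: TATAAA for the TATA box, GGGCGG for the GC box, CCAAT for the box of that name, CANNTG for the E-box, TTCNNNGAA for STAT-type sites, GTAAACA for forkhead-type sites, AAGGTCA for NR5A-type half-sites, TAATTA for homeodomain-type sites, TCACACC for T-box-type half-sites and TGACGTCA for the cyclic AMP response element. Locations in order are chrX:102252182-102252431 (minus strand), chr5:72504541-72504790 (minus), chr13:56609336-56609522 (plus), chr13:104863894-104864143 (minus) and chr6:5383136-5383385 (plus).
Cited1: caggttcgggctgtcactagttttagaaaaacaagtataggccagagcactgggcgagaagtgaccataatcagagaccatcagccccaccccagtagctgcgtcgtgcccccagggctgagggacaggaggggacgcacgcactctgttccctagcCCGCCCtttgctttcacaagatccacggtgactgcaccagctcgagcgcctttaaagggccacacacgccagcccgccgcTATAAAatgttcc
Corin: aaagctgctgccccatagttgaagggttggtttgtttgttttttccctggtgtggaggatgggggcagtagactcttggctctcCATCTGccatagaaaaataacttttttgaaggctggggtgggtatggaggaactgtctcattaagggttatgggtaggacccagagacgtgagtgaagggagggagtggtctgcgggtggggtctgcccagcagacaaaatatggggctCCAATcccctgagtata
Tgfbi: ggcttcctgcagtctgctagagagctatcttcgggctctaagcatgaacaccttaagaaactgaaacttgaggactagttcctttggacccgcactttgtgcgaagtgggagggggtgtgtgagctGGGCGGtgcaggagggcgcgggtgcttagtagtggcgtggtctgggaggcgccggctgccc
Fam159b: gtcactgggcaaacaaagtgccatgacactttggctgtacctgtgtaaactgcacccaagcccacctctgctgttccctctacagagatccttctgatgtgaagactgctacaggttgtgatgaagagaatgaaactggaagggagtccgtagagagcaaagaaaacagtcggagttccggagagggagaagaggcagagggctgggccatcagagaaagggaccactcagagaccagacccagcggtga
Asb4: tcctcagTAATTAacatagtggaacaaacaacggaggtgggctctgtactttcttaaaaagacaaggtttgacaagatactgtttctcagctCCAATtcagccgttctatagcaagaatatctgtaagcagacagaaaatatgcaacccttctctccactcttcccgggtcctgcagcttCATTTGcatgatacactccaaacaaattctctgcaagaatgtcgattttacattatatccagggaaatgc
No 2 of these windows held the same set of matches. Cited1 carried a TATA box 7 bases and a GC box 87 bases upstream of the RefSeq start, in a window with 58.0% GC and 13 CpG. Corin had a CCAAT box at 12 bases, an E-box at 160 bases and only 2 CpG. The 187 printed bases of Tgfbi, cut short because GENCODE starts the gene upstream of RefSeq, held a GC box at 118 bases. Its full window of 250 bases up to the RefSeq start, part of it not printed, held 15 CpG. That was the most of the 5 full windows, and the printed bases hold fewer. Fam159b matched none of the motifs. Asb4, the poorest in GC at 40.8%, had an E-box at 64, a CCAAT box at 153 and a homeodomain-type site at 237 bases. Over 32851 RefSeq windows of full length the medians were 52.4% GC and 6 CpG. In them, 66.2% held an E-box, 32.7% a GC box, 12.4% a TATA box and 4.84% the homeodomain-type site. A match describes letters only and does not show that a factor binds.

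Libraries held 39.9 to 74.6 M estimated counts (M, mega), and 1 count equalled 0.0134 to 0.0251 counts per M (CPM, scaled by the TMM method). Agrp stood at 2.64, 3.34, 3.05 and 4.38 CPM in input and at 803, 801, 683 and 1083 CPM in IP, replicates 1 to 4. All 10 tested AgRP neuron markers passed the test as higher in IP, and all 9 astrocyte and all 9 oligodendrocyte markers passed as lower. Also lower were 9 of 9 markers of neurons of other nuclei, 7 of 9 of other arcuate neurons and 4 of 5 of oligodendrocyte precursors. So were 8 of 10 microglia and macrophage, 5 of 8 tanycyte and ependymal and 3 of 10 vascular and fibroblast markers. Of 4 tested pituitary markers 2 were lower, and the sum of all 7 was 42.9 to 51.0 CPM in input and 46.6 to 51.5 CPM in IP. Over all 17000 genes tested with edgeR, 24.5% were called higher and 20.9% lower in IP at an adjusted p under 0.05. Under upper-quartile scaling 43.3% of the called genes were higher, against 54.1% with TMM. All 4 IP libraries lay above all 4 inputs for 24.1% of genes and below them for 24.0%. Mff stood at 124 ± 8.69 CPM in input and 68.4 ± 3.10 CPM in IP (SD, n = 4 each), which does not check its deletion, since counts are per gene and control mice were not analysed here. These are shares of RNA in bulk samples, so fewer cells of a type and less RNA per cell cannot be told apart.

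Cited1 (ENSMUSG00000051159) spans X:102247381-102252181 on the minus strand of GRCm38. Its level was 11.8, 12.0, 11.3 and 12.5 CPM in the 4 inputs and 445, 395, 339 and 454 CPM in the 4 IP libraries. The inputs were nearly level, and the lowest IP library was 27.1 times the highest input. The mean was 34.3-fold higher in IP, at 408 ± 53.1 against 11.9 ± 0.522 CPM (SD, n = 4 each), a log2 fold change of 5.10 ± 0.11 (SE).

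Corin (ENSMUSG00000005220) spans 5:72300025-72504473 on the minus strand. It was close to the detection limit in input, with 20, 26, 5 and 26 estimated counts, or 0.364, 0.351, 0.116 and 0.605 CPM. IP libraries held 1000, 815, 872 and 996 counts, or 17.7, 15.4, 12.6 and 25.0 CPM, and stood apart from every input. The difference was 49.2-fold (log2 fold change 5.61 ± 0.39). It was the steepest of the 5, at rank 10 of 17000 genes by log2 fold change, and had the largest SE of the 5.

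Tgfbi (ENSMUSG00000035493) spans 13:56609523-56639562 on the plus strand. Its levels were 1.09, 0.863, 1.28 and 1.47 CPM in input and 22.6, 26.7, 16.9 and 37.4 CPM in IP. The fractions did not overlap, and IP replicate 4 held 2.21 times the level of IP replicate 3. The means, 1.18 ± 0.258 and 25.9 ± 8.64 CPM, were 22.0-fold apart (log2 fold change 4.47 ± 0.28). Macrophages and fibroblasts also make this matrix protein, so their markers were read beside it. The summed level of 10 microglia and macrophage markers ran from 64.8 to 80.4 CPM in input and from 24.5 to 28.7 CPM in IP. That of 10 vascular and fibroblast markers ran from 38.4 to 50.2 CPM in input and from 14.1 to 32.3 CPM in IP, highest in IP replicate 3, where Tgfbi was lowest. The microglia and macrophage sum was 24.5, 27.3, 25.6 and 28.7 CPM in IP replicates 1 to 4, highest in replicates 4 and 2, where Tgfbi was also highest. The part of these cells in the level of Tgfbi was not tested.

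Fam159b (ENSMUSG00000042655) spans 13:104845283-104863893 on the minus strand. Inputs held 0.728, 0.877, 1.26 and 1.26 CPM and IP libraries 26.9, 19.7, 20.99 and 19.7 CPM. IP replicate 1 was highest and the other IP libraries were close together, all of them at least 15.6 times the highest input. The mean went from 1.03 ± 0.269 to 21.8 ± 3.45 CPM, 21.2-fold (log2 fold change 4.42 ± 0.22).

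Asb4 (ENSMUSG00000042607) spans 6:5383386-5433022 on the plus strand and had the most input counts of the 5. Its inputs read 43.9, 35.8, 40.3 and 33.8 CPM and its IP libraries 145, 143, 137 and 180 CPM. The groups did not overlap, with the lowest IP library 3.13 times the highest input. The mean was 3.94-fold higher in IP (log2 fold change 1.98 ± 0.11), at rank 350 of 17000, which sets Asb4 apart from the other 4 genes at ranks 10 to 27. All 5 genes passed the filter on low counts, and for all 5 every IP library lay above every input, as the choice of genes required.

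**Figure D1:**
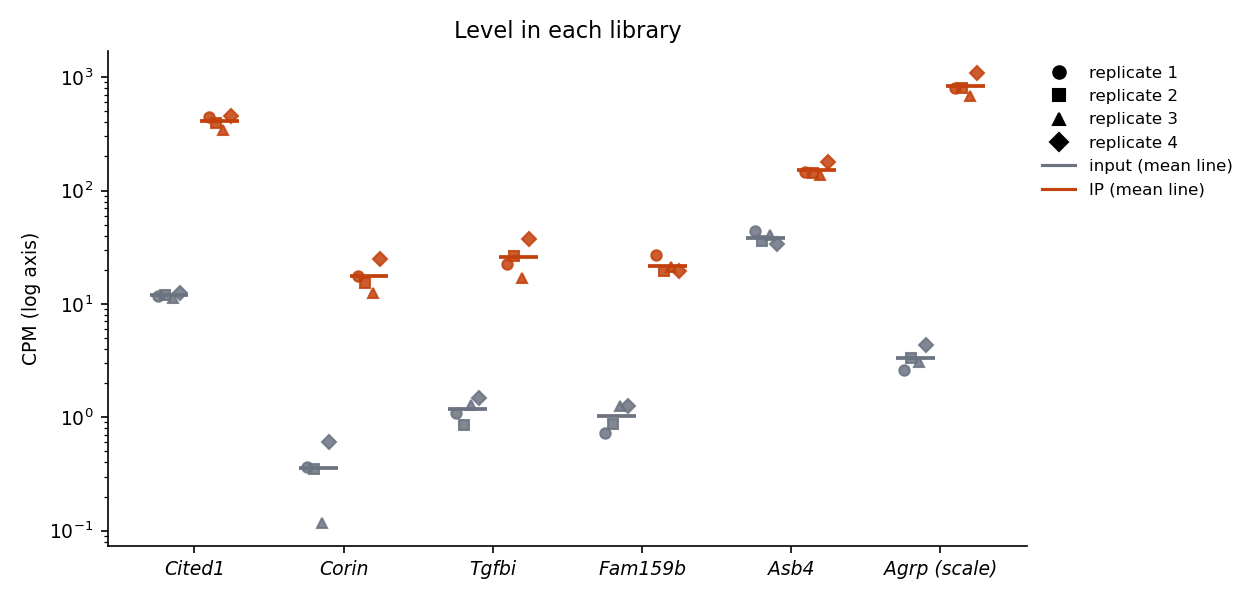
Level in CPM (log axis) of the 5 genes and of Agrp in each of the 8 libraries; grey symbols are inputs, red symbols IP libraries, horizontal lines group means, and the symbol shape gives the replicate. No gene has overlapping groups, and Asb4 has the narrowest gap, between mean levels of 38.5 CPM (input) and 151 CPM (IP).

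Levels of different genes are compared only per length of the longest coding transcript. In IP the order in CPM per kb was Cited1 at 374.5 ± 48.7, Asb4 at 46.1 ± 5.88, Fam159b at 16.6 ± 2.63, Tgfbi at 9.55 ± 3.18 and Corin at 3.64 ± 1.10 (SD, n = 4), and no neighbours in that order overlapped. In input Asb4 at 11.7 ± 1.38 and Cited1 at 10.9 ± 0.479 CPM per kb overlapped, while Fam159b at 0.786, Tgfbi at 0.433 and Corin at 0.0739 were each separate from the next. Cited1 thus led the 5 genes in IP and shared the first place in input.

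Set against Agrp in the same IP library, also per length, Cited1 reached 37.3%, 33.2%, 33.4% and 28.2% of its level. Asb4 reached 4.04%, 3.99%, 4.49% and 3.71%, and the remaining 3 genes between 0.278% and 1.88%. In input the picture was different, with Asb4 at 270% ± 84.4 and Cited1 at 246% ± 44.1 of Agrp (SD, n = 4). The input mean of Fam159b was 17.3% ± 3.89, that of Tgfbi 9.65% ± 2.06 and that of Corin 1.58% ± 0.711 of Agrp, so all 5 genes made up a larger share relative to Agrp in input than in IP.

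The 4 IP libraries differed among themselves, and the 5 genes did not follow 1 order. Corin, Tgfbi and Asb4 were lowest in IP replicate 3 and highest in IP replicate 4, as was Agrp, which ranged from 0.810 to 1.29 times its mean. Cited1 had the same extremes, from 0.830 to 1.11 times its mean. Fam159b departed from this, being highest in IP replicate 1 at 1.23 and at 0.903 times its mean in replicate 4. The summed AgRP marker level was lowest in replicate 3, at 3432 CPM, and highest in replicate 4, at 4982 CPM. Most of that sum was Agrp, at 683 and 1083 CPM, and Npy, at 1508.5 and 2566 CPM in those libraries. The sum is therefore not independent of Agrp, and its part in these differences was not tested. Dividing by Agrp lowered the coefficient of variation (CV, SD over mean) of Corin from 30.2% to 10.8% and of Tgfbi from 33.3% to 15.02%, but raised that of Fam159b from 15.8% to 25.5%. For scale, the median CV in IP over 8377 tested genes with at least 10 CPM was 13.7%, and 92.0% of those genes varied less than Corin and 94.9% less than Tgfbi. Those genes were not matched for level, and the mean IP levels of Corin and Tgfbi were 17.7 and 25.9 CPM.

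**Figure D2:**
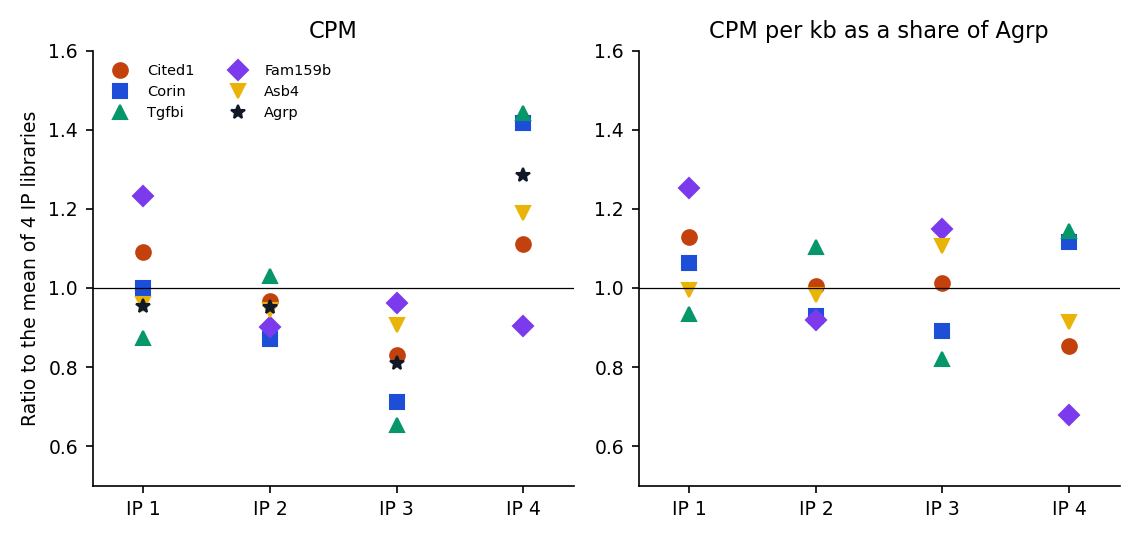
Level in each of the 4 IP libraries divided by the mean of the 4, for CPM (left) and for CPM per kb as a share of that of Agrp (right); each symbol is 1 gene in 1 library. On the left Tgfbi and Corin run from 0.653 and 0.712 in replicate 3 to 1.44 and 1.42 in replicate 4, while Fam159b peaks in replicate 1.

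Neither of the other CITED genes was called in either direction. Cited2, which competes with hypoxia-inducible factor for CBP and p300, was at 23.5, 26.5, 23.4 and 21.2 CPM in input and 20.9, 12.9, 18.4 and 25.7 CPM in IP. Its groups overlapped, and its log2 fold change was -0.28 ± 0.18 (adjusted p = 0.239 in edgeR). Cited4 was low in every library and also overlapped (0.43 ± 0.54, adjusted p = 0.557). Neither gene was called by edgeR even at an unadjusted p under 0.05, and DESeq2 and limma-voom also called 0 of the 2. Per length, Cited1 made up 49.9% ± 2.69 of the 3-gene family in input and 97.5% ± 0.233 in IP (SD, n = 4). The choice of genes on this contrast favoured such a rise, here and in the family shares and ranks given below.

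Of the 7 listed partners of CITED1, 5 were tested, and 4 were lower in IP and 0 higher. Over all genes tested 20.9% were lower and 24.5% higher. The median log2 fold change of the 5 was -0.58, against -0.01 over all genes tested. Esr1, the oestrogen receptor alpha, fell from 10.4 ± 0.685 to 4.38 ± 0.979 CPM (adjusted p = 0.000298). Smad4, the common mediator of TGF-beta signals, fell by 0.58 ± 0.17 and Crebbp, which encodes CBP, by 0.39 ± 0.08 on the log2 scale (adjusted p = 0.0147 and 0.00214). Tfap2b, an AP-2 factor, fell by 3.58 ± 1.13 from a low input level (adjusted p = 0.0228). Ep300, which encodes p300, stood at 0.17 ± 0.08 and did not pass (adjusted p = 0.100). Without IP replicate 3 Ep300 was called higher (adjusted p = 0.0121), without input replicate 2 the call for Smad4 was lost (adjusted p = 0.052), and without any 1 input library that for Tfap2b (adjusted p = 0.0514 to 0.0588).

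Corin has many relatives among the type II transmembrane serine proteases, and few were detectable. Of 17 others listed, only Tmprss5 and Tmprss7 passed the filter on low counts. Neither was called, with log2 fold changes of 0.38 ± 1.24 and -1.52 ± 1.09 (adjusted p = 0.286 for Tmprss7, and larger for Tmprss5). EdgeR also called 0 of the 2 at an unadjusted p under 0.05. By adjusted p, DESeq2 called 0 and limma-voom 1 lower. That was Tmprss7, which edgeR also called lower without IP replicate 1 (-3.69, adjusted p = 0.0133). St14, which encodes matriptase, had 57 counts over the 4 inputs and 0 over the 4 IP libraries. All other proteases of the family together gave 1.17 to 1.49 CPM in the inputs and 0 to 1.43 CPM in the IP libraries. Per length, Corin held 13.5% ± 6.27 of the family total in input, where it ranked 4 of 18, and ranked 1 of 18 in IP.

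Genes around the known substrate of CORIN were called about as often as all genes. Of 9 tested genes of the natriuretic peptide system, 2 were higher, 2 lower and 5 neither, against 24.5% higher and 20.9% lower over all genes, with a median log2 fold change of -0.20. Nppa, which encodes the precursor that CORIN cuts in the heart, stood at 0.255, 0.432, 0.279 and 0.0698 CPM in input and 1.17, 0.492, 2.50 and 1.73 CPM in IP. Those groups did not overlap (2.48 ± 0.70, adjusted p = 0.0129), though every level was low, IP replicate 2 lay close to the highest input, and a minimum of 1 CPM in 4 libraries left Nppa untested. Npr2, the receptor of C-type natriuretic peptide, rose from 11.4 ± 0.537 to 20.2 ± 2.19 CPM (0.83 ± 0.12, adjusted p = 0.000226). Mme, which encodes the peptide-degrading enzyme neprilysin, fell from 14.1 ± 0.514 to 2.96 ± 1.50 CPM, and Ide, the insulin-degrading enzyme, fell by 0.93 ± 0.21 on the log2 scale. Furin, Pcsk6, Npr1, Npr3 and Nppc did not pass, though Furin was called lower without IP replicate 3 (-0.97, adjusted p = 0.0317).

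Since CORIN acts on agouti signalling in skin, the melanocortin genes were read beside it. Agrp and Mc3r are also among the 10 AgRP neuron markers counted above. The Agrp locus makes the Cre that switches on the tag, so the pull-down was aimed at cells that express Agrp. Of 6 tested melanocortin genes, Agrp and Mc3r were higher, Pomc and Atrn lower, and Mgrn1 and Mc4r neither, with a median log2 fold change of -0.28. Over all genes tested 24.5% were higher and 20.9% lower. Mgrn1 without IP replicate 1 and Mc4r without IP replicate 2 were called lower (adjusted p = 0.0143 and 0.03135), and Mc4r also with a replicate block (adjusted p = 0.0451). Limma-voom called Mc4r lower (adjusted p = 0.00772), and edgeR with upper-quartile scaling called Mgrn1 lower (adjusted p = 0.0156). All IP levels of Mc4r lay below all inputs, though both were low. Mc3r, a melanocortin receptor, was at 1.547, 1.17, 1.47 and 1.65 CPM in input and 23.2, 19.5, 19.3 and 42.4 CPM in IP. All IP libraries were far above the inputs, replicate 4 most of all (4.16 ± 0.29, adjusted p = 5.94e-07). Agouti itself, under the symbol a, and Mc1r had too few counts to be tested, with 5 and 10 counts over the 4 inputs and 3 and 7 over the 4 IP libraries.

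No other fasciclin-domain gene was called higher beside Tgfbi. Postn, which encodes periostin, its closest relative, read 1.31, 0.957, 1.98 and 1.51 CPM in input and 1.65, 0, 0.202 and 0 CPM in IP. It overlapped and did not pass (-1.62 ± 1.23, adjusted p = 0.314), but without IP replicate 1, the only high IP library, it was called lower (-4.23, adjusted p = 0.0113). Stab1, a scavenger receptor, was lower (-2.51 ± 0.94, adjusted p = 0.0483), a call missing in 10 of 16 alternative settings. It was lost with a replicate block and without any 1 input library, IP replicate 1 or IP replicate 2, among 9 such settings (adjusted p = 0.0523 to 0.1145), and a minimum of 1 CPM in 4 libraries left Stab1 untested. Stab2 stood at 0.66 ± 1.12. Per length, the share of Tgfbi in these 4 genes was 41.8% ± 3.99 in input and 97.4% ± 3.85 in IP.

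Integrins and matrix partners of TGFBI moved in both directions. Of 13 tested, 2 were higher, 4 lower and 7 neither, against 24.5% higher and 20.9% lower over all genes. Their median log2 fold change was -0.71. Itgb1, the integrin beta subunit shared by many receptors, read 17.6, 19.2, 20.4 and 19.8 CPM in input and 53.7, 47.0, 43.9 and 45.6 CPM in IP. Its groups were well apart (1.30 ± 0.10, adjusted p = 1.14e-06). Itga3, a laminin-binding alpha subunit, rose by less (0.68 ± 0.21, adjusted p = 0.0228) with overlapping groups, and lost its call in 7 of 16 settings, among them omitting input replicate 1, 3 or 4, and likewise IP replicate 1 or 4 (adjusted p = 0.0515 to 0.0667). Itgav fell from 26.4 ± 3.16 to 7.91 ± 4.80 CPM, and Itgb5 fell by 1.19 ± 0.32 on the log2 scale. The matrix proteoglycans Dcn and Bgn also fell, by 1.38 ± 0.36 and 1.07 ± 0.40, and the call for Bgn was lost in 7 settings, among them omitting input replicate 2, 3 or 4, and likewise IP replicate 1, 2 or 3 (adjusted p = 0.0561 to 0.128). None of the 3 TGF-beta ligand genes passed in edgeR, also at an unadjusted p under 0.05. By adjusted p, DESeq2 called 0 and limma-voom 1 lower. Without IP replicate 1 Tgfb1 was called lower (adjusted p = 0.00463), and without IP replicate 4 Tgfb2 (adjusted p = 0.015).

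Other genes of the family of Fam159b moved in both directions. Of 9 other tested SHISA genes, 4 were higher, 1 lower and 4 neither, against 24.5% higher and 20.9% lower over all genes. Their median log2 fold change was -0.08. The nearest by name, Fam159a, read 0.983, 0.836, 0.931 and 0.652 CPM in input and 6.72, 3.59, 2.74 and 6.46 CPM in IP. The groups did not overlap, and its mean was 5.74-fold higher (2.51 ± 0.37, adjusted p = 0.000216). Shisa9, an auxiliary subunit of AMPA-type glutamate receptors, rose from 74.1 ± 2.31 to 154 ± 9.23 CPM (1.05 ± 0.07, adjusted p = 3.29e-07), and Shisa5 by 1.23 ± 0.12 on the log2 scale. Shisa6, which also binds AMPA receptors, rose by 0.67 ± 0.21 with overlapping groups and lost its call in 5 of 16 settings, among them omitting input replicate 1 or 3, and likewise IP replicate 2 or 4 (adjusted p = 0.0554 to 0.0785). Shisal1, listed in the table as 1810041L15Rik, fell from 142 ± 13.7 to 74.4 ± 2.70 CPM. Fam159b stayed a small part of this family per length, from 0.744% ± 0.185 in input to 10.9% ± 1.56 in IP, where it ranked 4 of 11.

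Calls in the ASB family were about as frequent as over all genes. Of 10 other tested genes, 2 were higher, 2 lower and 6 neither, against 24.5% higher and 20.9% lower over all genes, with a median log2 fold change of 0.25. Asb7 rose from 27.0 ± 0.435 to 42.1 ± 4.69 CPM (0.64 ± 0.10, adjusted p = 0.000265). Asb8 rose by 0.41 ± 0.11 with overlapping groups, and its adjusted p of 0.0084 became 0.0502 under upper-quartile scaling. Asb13 fell by 0.63 ± 0.16 and Asb18 by 2.51 ± 0.61 on the log2 scale. Per length Asb4 went from 18.6% ± 1.45 to 42.7% ± 4.12 of the family total, and from rank 2 of 18, behind Asb8, to rank 1.

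Subunits of the cullin ligases that ASB proteins join were read next. Of 6 tested, 4 were higher and 0 lower, against 24.5% higher and 20.9% lower over all genes. Their median log2 fold change was 0.51. Tceb2, which encodes elongin B, rose from 80.6 ± 3.62 to 187 ± 10.2 CPM (1.21 ± 0.07, adjusted p = 1.18e-07). Rbx1, Rnf7 and Tceb1, the RING subunits and elongin C, rose by 0.72 ± 0.07, 0.55 ± 0.07 and 0.47 ± 0.07. Cul5 and Cul2, the cullin scaffolds, stood at 0.07 ± 0.09 and 0.24 ± 0.11 and did not pass.

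Reported targets and partners of ASB4 did not move together. Irs4, an insulin receptor substrate and a known target of ASB4, read 135, 127, 125 and 121 CPM in input and 1268, 1140, 941 and 1122 CPM in IP. Its rise was well beyond the spread between libraries (3.14 ± 0.09, adjusted p = 1.33e-09). Id2, an inhibitor of helix-loop-helix factors, fell from 42.5 ± 2.75 to 12.99 ± 4.72 CPM, with IP replicate 3 at 20.1 CPM above the other IP libraries. Hif1an, an oxygen-dependent hydroxylase, fell by 0.60 ± 0.17 (adjusted p = 0.0151), a call lost without input replicate 4 (adjusted p = 0.0565). Gps1, a COP9 signalosome subunit, stood at 0.28 ± 0.11 (adjusted p = 0.053) and was called higher without IP replicate 1 (adjusted p = 0.017).

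**Figure D3:**
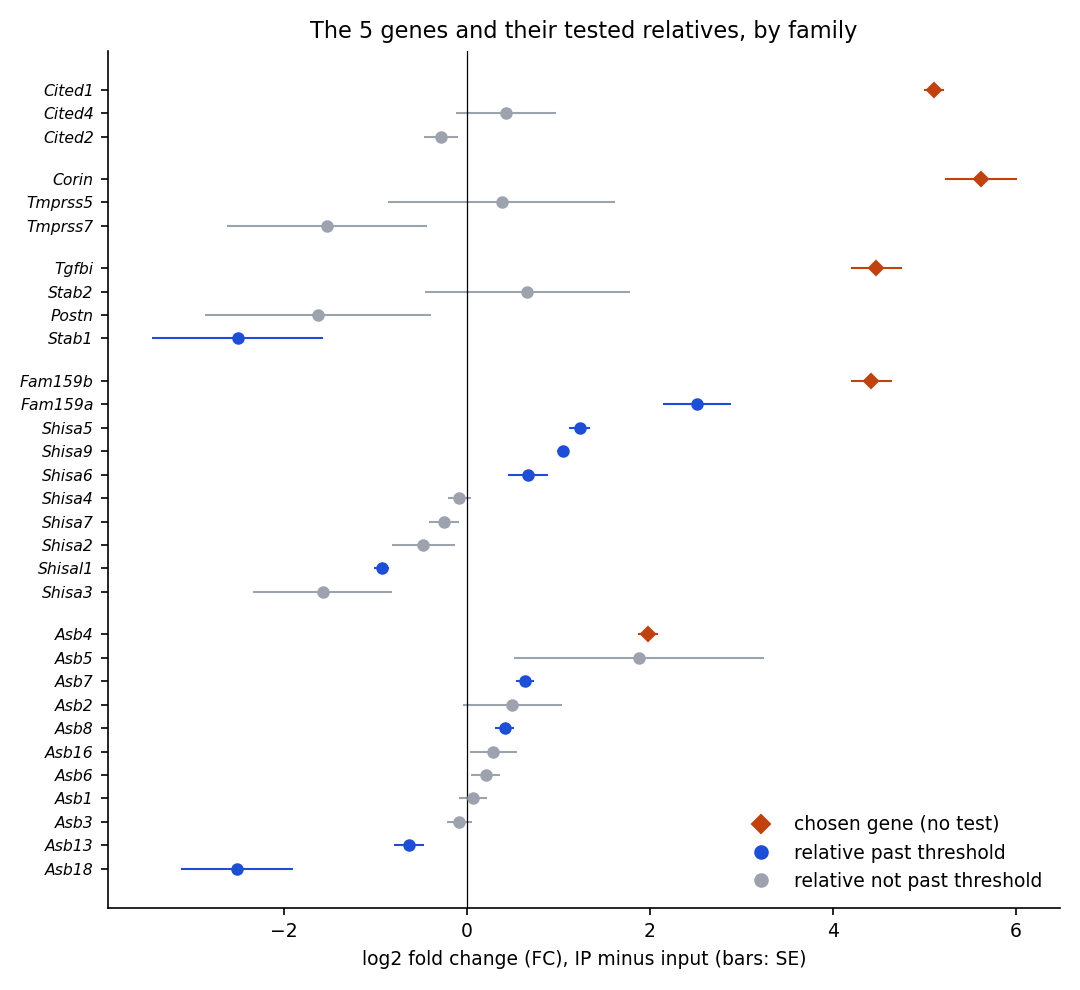
Log2 fold change (IP minus input) of each chosen gene (red diamonds, no test) and of its tested family members (circles; blue past an adjusted p of 0.05, grey not); bars are SE. In 4 of the 5 families every relative lies well below the chosen gene, which the choice of genes on this contrast favoured. Asb5 at 1.88 ± 1.37 comes close to Asb4 with a wide error. Its IP level was 2.67 CPM in replicate 1 and 0.284, 0 and 0.0503 CPM in replicates 2 to 4.

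Asb4 lies in an imprinted cluster on chromosome 6, in which several genes are expressed from 1 parental copy. Of 11 other tested genes of that cluster, 4 were higher, 1 lower and 6 neither, against 24.5% higher and 20.9% lower over all genes. Their median log2 fold change was 0.36. Calcr, among those higher, is also 1 of the 10 AgRP neuron markers counted above. Calcr, the calcitonin receptor, read 13.2, 10.5, 12.2 and 11.8 CPM in input and 134, 126, 137 and 147 CPM in IP (3.52 ± 0.09, adjusted p = 6.56e-10). Peg10, a gene of retrotransposon origin, rose from 364 ± 44.2 to 1246 ± 213 CPM (1.78 ± 0.12). Casd1 and Ppp1r9a rose by 0.89 ± 0.09 and 0.53 ± 0.07, and Pon2, which lies near Asb4, fell by 1.01 ± 0.13. Sgce, paired with Peg10 at a shared start region, stood at 0.36 ± 0.18 (adjusted p = 0.129) and was called higher without IP replicate 3 (adjusted p = 0.0359).

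Protein-coding genes starting within 500 kb of the 5 start sites were counted next. Of 45 such genes, 28 were tested, and 10 were higher, 6 lower and 12 neither, with a median log2 fold change of 0.11. Over all genes tested 24.5% were higher and 20.9% lower. The 5 tested neighbours of Asb4, among them Ppp1r9a and Pon2, also belong to the imprinted cluster counted above. Corin had the neighbours with the largest rises. Zar1, a gene known for its role in oocytes, starts 76.8 kb away and read 1.42, 0.809, 1.35 and 0.954 CPM in input and 15.6, 19.1, 15.05 and 12.4 CPM in IP. Its groups were far apart (3.78 ± 0.24, adjusted p = 3.54e-07). Gm5868, a predicted gene 83.1 kb away on the same strand, went from 0.367 ± 0.156 to 3.61 ± 2.39 CPM (3.27 ± 0.58, adjusted p = 0.000782). Nfxl1, which lies between Corin and Zar1, stood at 0.28 ± 0.37 and did not pass (adjusted p = 0.571), and Tec, a tyrosine kinase gene farther out, was lower with a call missing in 6 of 16 settings. It was lost without any 1 input library or IP replicate 1 (adjusted p = 0.0673 to 0.104), and a minimum of 1 CPM in 4 libraries left Tec untested.

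The remaining neighbours moved less. Rps4x, a ribosomal protein gene 62.8 kb from Cited1, rose by 1.41 ± 0.08 on the log2 scale, with Pin4 and Rgag4 at 0.78 and 0.88 and Nhsl2 at -0.53. Around Tgfbi, Fbxl21 and H2afy rose by 0.92 and 0.70 while Cxcl14 and Trpc7 fell by 0.90 and 0.62, the latter no longer past the threshold without input replicate 2 (adjusted p = 0.051). Near Fam159b, Cwc27 rose by 0.69 and Rgs7bp fell by 1.31. Cited1, Tgfbi, Fam159b and Asb4 overlap no annotated gene, and the antisense gene Gm20647 inside Corin had a mean of 0.071 CPM in IP.

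**Figure D4:**
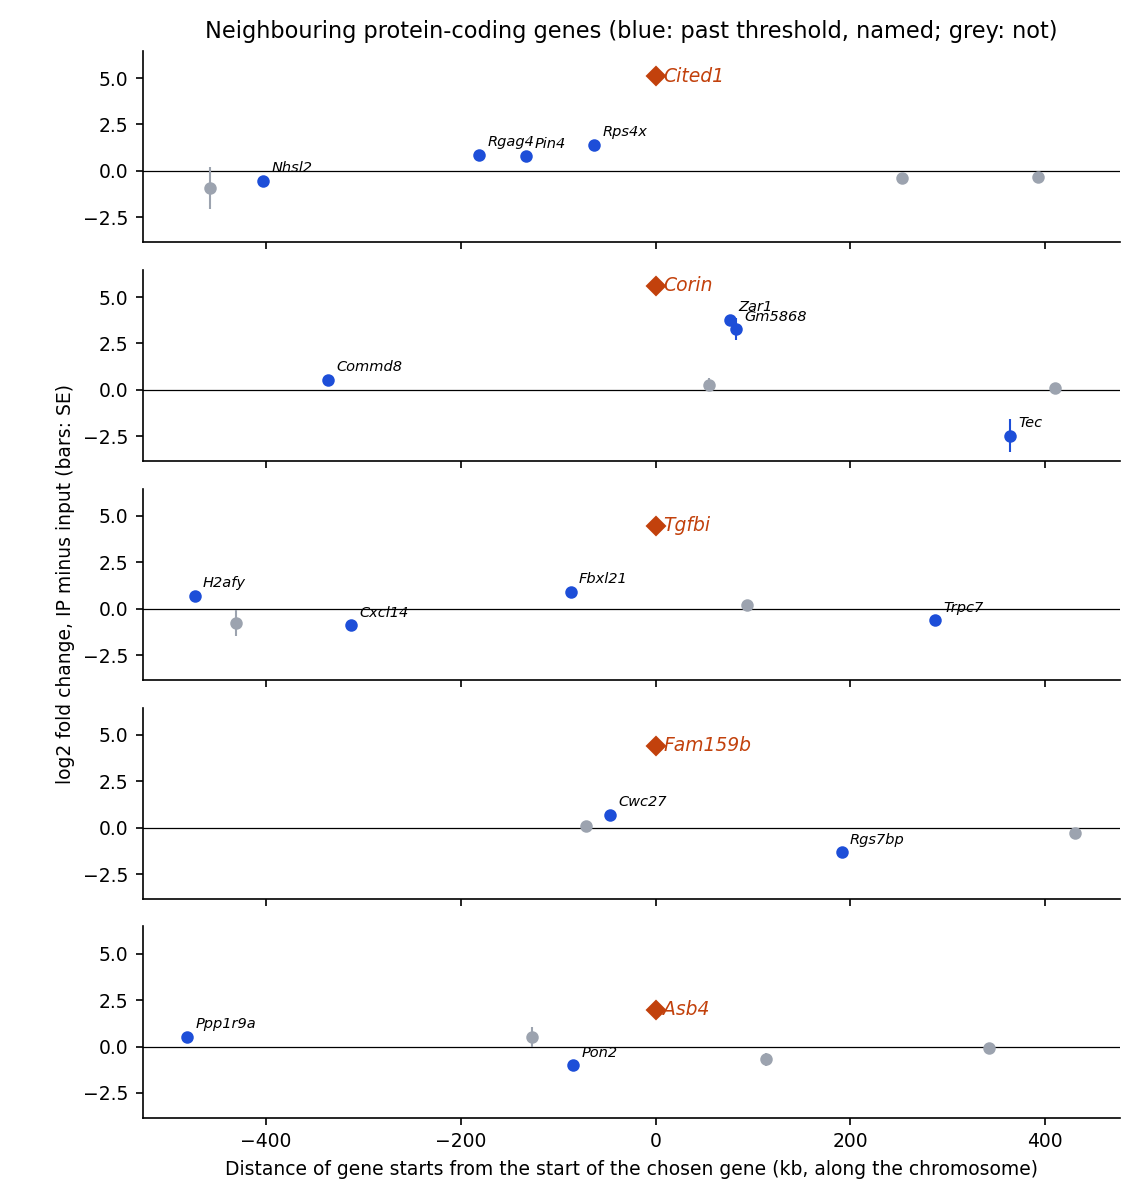
Log2 fold change (IP minus input, bars SE) of tested protein-coding genes by the distance in kb of their start from the start of each chosen gene (red diamond); blue genes passed an adjusted p of 0.05. Zar1 and Gm5868, 76.8 and 83.1 kb from Corin, are the only neighbours drawn above 3.

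Genes whose pattern over the 8 libraries was most like that of each gene were ranked by the root mean square difference of centred log2 levels among 12467 candidates. The nearest to Cited1 were Serpina3n at 0.211, Tbx3 at 0.363 and Tbx3os2 at 0.390. Corin was nearest to Serpina3i at 0.485 and Serpina3n at 0.557, with Cited1 next at 0.580; Serpina3 genes are near-identical copies whose counts are uncertain. Tgfbi was nearest to Mc3r at 0.267, Npy2r at 0.340 and Tbx3 at 0.342, and Fam159b to Tbx3 at 0.248, Npy2r at 0.320 and Bsx at 0.367. Asb4, with its smaller step, was nearest to Btg3 at 0.084, Sorcs3 at 0.086 and Igsf1 at 0.100. Among the 5, Tgfbi and Fam159b were closest at 0.396, and Asb4 differed from the others by 1.24 to 1.92. The measure is dominated by the size of the step between fractions, which the choice of the 5 genes used, and it is given as a description.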

How the data were processed

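The deposited table holds estimated (expected) counts per gene, not normalized, for 8 RNA libraries of the mouse arcuate region, 4 IP and 4 input. The authors made these estimated counts with Salmon 0.14.1 against the GRCm38.p6 build, per the submitters' processing notes. For trimming, strand and the annotation release used, the settings were not given in the sources used here. Counts of overlapping and antisense genes are therefore uncertain, and reads shared by near-identical copies, such as ribosomal protein genes, are divided by a model. Between 15.3% and 19.2% of the values of a library were not whole (tolerance 1e-06).

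Values were rounded and fitted with edgeR 4.0.16 in R 4.3.3 over all genes kept by filterByExpr (minimum count 10), with TMM scaling and the quasi-likelihood test of IP against input without covariates. P-values were adjusted over 17000 genes by the Benjamini-Hochberg method, threshold 0.05. DESeq2 1.42.0 and limma 3.58.1 (voom) were alternatives. The edgeR steps were also run on simulated data in which far fewer genes changed than were called here. That run cannot check the scaling or the error rate for these libraries. Groups and replicate numbers come from the sample titles, and each replicate pooled its own mice. Whether an IP and an input of 1 number share a pool was not stated in the labels read here. CPM are given as mean ± SD and log2 fold changes with SE; a positive value means higher in IP. The likeness measure used log2 CPM (prior count 2) centred per gene, with a minimum mean of 1 CPM for candidate genes.

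Of the table's identifiers 98.8% matched GENCODE M21, which gave coordinates and lengths. Fam159b was matched to Shisal2b through RefSeq synonyms. The 5 genes were taken by name, and the 5 genes, the 13 lists of relatives and the 10 lists of cell type markers were chosen with earlier results of these data known. Named genes are the members of those lists, the neighbours past the threshold or within the span discussed, and the 3 genes most alike in pattern. Promoter windows came from RefSeq; Agrp had no entry. Intervals cover the spread between pools only.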

Additional observations from a re-analysis of the deposited data

Results flagged for a closer look

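Of 122 groups of 4 libraries (61 genes, each in both fractions), 5 held 1 library whose gap to its nearest neighbour was large for the group's range; chance gives about 1 in 20. Mc3r stood at 42.37 CPM in IP replicate 4, against 19.27 to 23.16 CPM in the other IP libraries, the same library in which Tgfbi, Corin and Agrp were highest. Id2 stood at 20.05 CPM in IP replicate 3, against 10.37 to 10.99 CPM. Among inputs, Tfap2b was high in replicate 1 (1.675 CPM against 1.281 to 1.327), Cxcl14 was high in replicate 4 (15.25 against 11.39 to 11.94 CPM) and Fbxl21 was low in replicate 2 (12.35 against 13.92 to 14 CPM). None of the 5 chosen genes was among them.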

How the results depend on the processing

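All 5 chosen genes kept their direction under 16 alternative settings, and leaving out each library in turn gave log2 fold changes of 5.05 to 5.18 for Cited1, 5.36 to 5.94 for Corin, 4.25 to 4.64 for Tgfbi, 4.29 to 4.54 for Fam159b and 1.89 to 2.05 for Asb4. Of 106 relatives and neighbours, 67 were tested and kept their call in all 16 settings, 28 changed call in some, and 11 kept it wherever they were tested but were left untested in some. Upper-quartile scaling moved the median log2 fold change of all genes from -0.01 to -0.15. The cause of the following changes in counts was not tested. With library totals, 1 CITED partner was higher in place of 0, 2 ASB4 targets in place of 1, and 0 fasciclin genes were lower in place of 1. Without a filter 1 serine protease was lower in place of 0, and 0 fasciclin genes in place of 1. With a minimum of 1 CPM in 4 libraries, 1 natriuretic gene was higher in place of 2 and 0 fasciclin genes were lower. Upper-quartile scaling left 1 ASB gene and 1 TGFBI integrin higher in place of 2. Limma-voom called 1 serine protease, 1 TGF-beta ligand, 2 fasciclin genes and 3 genes of the imprinted cluster lower, and 1 TGFBI integrin higher. DESeq2 called 2 genes of the cluster lower. Both upper-quartile scaling and limma-voom called 3 melanocortin genes lower in place of 2.

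Leaving out 1 library gave 3661 to 4508 genes higher and 2862 to 4230 lower over all genes tested. It gave 0 to 1 CITED partners higher and 2 to 4 lower, 0 to 2 serine proteases lower, 2 to 3 natriuretic genes lower, 2 to 3 melanocortin genes lower and 0 to 1 fasciclin genes lower. It gave 1 to 2 TGFBI partners higher and 3 to 5 lower, 0 to 1 TGF-beta ligands lower, and 3 to 4 SHISA genes higher and 1 to 2 lower. For ASB4 targets the ranges were 1 to 2 higher and 1 to 2 lower, for the imprinted cluster 4 to 5 higher and 1 to 2 lower, and for neighbours 10 to 11 higher and 4 to 7 lower.

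With the replicate number as a replicate block, 3878 genes were higher and 3714 lower, in place of 4171 and 3545. Fasciclin genes lower went from 1 to 0 (Stab1), and melanocortin genes lower from 2 to 3 (Mc4r). Deviations of IP and input libraries of the same number correlated at 0.0484 to 0.0836 over 17000 genes. Those of different numbers correlated at -0.0379 to -0.00165, so every library correlated best with its own number. The main test took no account of a pairing by number, and whether such libraries share a pool was not stated. Depth limits Corin in input and most of its relatives most, since 1 count equals 0.0134 to 0.0251 CPM.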
